A study of Mus musculus with 20 samples.

Results

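Aldehyde dehydrogenases oxidise aldehydes to the matching carboxylic acids with NAD+ or NADP+, and the liver holds many of them. Messenger RNA of 10 of these genes (Aldh1a1, Aldh1a7, Aldh1b1, Aldh1l1, Aldh2, Aldh3a2, Aldh4a1, Aldh6a1, Aldh8a1 and Aldh9a1) was followed in the livers of mice given perfluorooctanoic acid (PFOA), a persistent fluorinated surfactant. They were taken by gene symbol from the deposited count tables, where they are 10 of 53599 rows, and 11 further Aldh rows were used for comparison. All 10 passed the filter on low counts in every fit.

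The mice were male and female and had either no PPARα, a nuclear receptor activated by fatty acids (knockout, KO), or a transgene for the human form of it (hPPARa). From weaning they drank, for 6 to 7 weeks, PFOA at 8 µM in water with 0.5% sucrose, or that sugared water alone (vehicle). Every group ate an American-style diet whose energy came 51.8% from carbohydrate, 33.5% from fat and 14.7% from protein. Whole-liver RNA gave 20 libraries: 3 KO male PFOA, 3 KO male vehicle, 3 KO female PFOA, 1 KO female vehicle, 3 hPPARa male PFOA, 2 hPPARa male vehicle, 2 hPPARa female PFOA and 3 hPPARa female vehicle. The sources used here do not give the promoter of the transgene, the part of the gene removed in the knockout or the age in weeks. Nothing in the labels ties each library to its own mouse, and the p-values therefore reflect the spread among these libraries, which may be technical.

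The 10 enzymes work on different aldehydes. Aldh3a2 encodes the fatty aldehyde dehydrogenase of the endoplasmic reticulum, which turns long-chain aldehydes from sphingolipid and ether lipid breakdown into fatty acids, and it is known as a PPARα-responsive gene in rodent liver. Aldh1a1 makes retinoic acid from retinaldehyde in the cytosol, and Aldh1a7 is its close rodent paralogue. Aldh9a1 oxidises an aldehyde of carnitine synthesis and other amine-derived aldehydes. Aldh2 and Aldh1b1 are mitochondrial enzymes that clear acetaldehyde. The other members belong to single catabolic routes: Aldh4a1 to proline, Aldh6a1 to valine and thymine, Aldh8a1 to tryptophan, and Aldh1l1 to folate, where it oxidises 10-formyltetrahydrofolate.

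Promoter windows of RefSeq, in build GRCm38.p6, run from 250 bases before to 50 bases after a transcription start and were found for 9 of the 10 members, with 11 windows in all. Shown are a window each of Aldh1a1 and Aldh1a7, because the levels of both genes moved together, and that of Aldh3a2, the member with the largest PFOA difference in hPPARa. Aldh1a1 lies on the plus strand of chromosome 19, and the window is the second of its 2 (chr19:20601718-20602017). It was taken because it matched the Aldh1a7 window better than the first did, which was identical to that window at 25.7% of bases. Aldh1a7 lies on the minus strand of the same chromosome (chr19:20727507-20727806), and Aldh3a2 on the minus strand of chromosome 11 (chr11:61267137-61267436). In the first pair the capitals mark the longest run of identical bases, and in Aldh3a2 they mark each CG dinucleotide.
Aldh1a1: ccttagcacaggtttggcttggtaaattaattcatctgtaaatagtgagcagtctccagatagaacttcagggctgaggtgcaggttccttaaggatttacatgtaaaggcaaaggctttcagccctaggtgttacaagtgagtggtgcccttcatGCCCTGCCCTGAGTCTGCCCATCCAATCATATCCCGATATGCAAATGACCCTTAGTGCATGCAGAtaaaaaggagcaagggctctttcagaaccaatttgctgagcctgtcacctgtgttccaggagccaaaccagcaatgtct
Aldh1a7: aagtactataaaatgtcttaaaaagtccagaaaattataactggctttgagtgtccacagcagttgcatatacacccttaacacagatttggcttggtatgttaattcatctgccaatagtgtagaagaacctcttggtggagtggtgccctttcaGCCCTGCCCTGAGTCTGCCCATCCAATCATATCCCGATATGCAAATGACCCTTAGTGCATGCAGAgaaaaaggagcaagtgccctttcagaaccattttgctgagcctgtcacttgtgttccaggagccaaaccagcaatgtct
Aldh3a2: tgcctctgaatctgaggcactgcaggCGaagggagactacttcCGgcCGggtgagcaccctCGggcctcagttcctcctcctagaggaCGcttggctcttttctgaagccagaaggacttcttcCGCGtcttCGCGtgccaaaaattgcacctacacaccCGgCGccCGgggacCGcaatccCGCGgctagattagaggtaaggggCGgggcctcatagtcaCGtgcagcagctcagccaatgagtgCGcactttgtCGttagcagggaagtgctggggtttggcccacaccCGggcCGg

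Set base against base without gaps, the windows of Aldh1a1 and Aldh1a7 were identical at 142 of the last 150 positions (94.7%), against 16% to 28% in each of the first 3 stretches of 50 bases. Their identical run spans window positions 157 to 221, which is 65 bases, and holds the motif CCAAT at 72 bases before the start in both. Over the whole 300 bases their identity was 59%, and the highest among the other pairs of member windows was 31%. The coding sequences of both genes were alike as well, with 91.6% identical bases over 1506. Of the 50-base words in the transcripts, 151 were shared, which is 3.06% of those of Aldh1a1 and 7.49% of those of Aldh1a7, so a small share of reads could have been split between the genes or lost in the authors' counting. The Aldh3a2 window held 21 CG dinucleotides and 61.7% G and C, where the medians of all 32851 windows were 7 and 52.7%. Both strands of the windows were searched for the exact letters AGGTCA, a half-site of nuclear receptors, and for AGGNCANAGGNCA, a repeat of it spaced by 1 base. None of the windows of Aldh3a2, Aldh1a1, Aldh1a7 or Aldh9a1 held either, while 16.3% and 0.381% of all windows did. This says only that these letters are not in these windows.

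Total counts ran from 14973673 to 17953860 per library. Levels are given in CPM, the count of a gene scaled to the usual common library size by edgeR's cpm function with TMM-normalised totals. The row of mouse Ppara stood at 8.42 to 25.1 CPM in the 10 KO libraries and at 16.9 to 39.6 CPM in the 10 hPPARa libraries. These ranges overlapped, and since the part of the gene that was removed is not given, the row does not check the labels. In 3 KO libraries transcripts of the other sex were present at low levels: Ddx3y, a Y-linked gene, had 4.06 CPM in KO female PFOA replicate 2 and 1.86 CPM in KO female vehicle replicate 1, against at most 0.415 CPM in the other females. Xist, which is transcribed from the inactive X, had 30.8 CPM in KO male PFOA replicate 2 and at most 4.40 CPM in the other males. The KO tests of the members are also given without them where they could be fitted and a call or sign is at stake; levels use all libraries. Without them the KO livers have 4 PFOA libraries and 3 vehicle libraries, with no female on vehicle. The KO difference with PFOA then comes from males alone, and a KO sex difference from PFOA libraries alone. A comparison of PFOA differences between the genotypes then sets KO males against both sexes of hPPARa.

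Aldh3a2, Aldh1a1, Aldh1a7 and Aldh9a1 were higher on PFOA in both genotypes. In bulk liver, fewer cells of a type and less RNA per cell cannot be told apart. In KO livers 4 of 10 members passed edgeR's quasi-likelihood test (Benjamini-Hochberg adjusted p under 0.05), all higher on PFOA, where 13.8% of all genes tested passed in either direction. In hPPARa livers it was 4 of 10, all higher, against 22.6% of all genes tested. The median log2 difference of the 10 members was 0.10 in KO, where that of all genes tested was −0.02, and 0.26 in hPPARa, where that of all genes tested was −0.01. Together the 10 members took 0.658% to 0.848% of all counts in KO PFOA libraries, against 0.495% to 0.631% in KO vehicle libraries. In hPPARa the share was 0.741% to 0.917% on PFOA and 0.442% to 0.640% on vehicle.

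Aldh3a2, the fatty aldehyde dehydrogenase, was the member in which the genotypes stood furthest apart on PFOA. In KO livers it had 501, 349 and 317 CPM in PFOA males and 351, 495 and 437 CPM in PFOA females, against 86.1, 104 and 108 CPM in vehicle males and 254 CPM in the vehicle female. In hPPARa livers it had 1244, 1381 and 1486 CPM in PFOA males and 1092 and 976 CPM in PFOA females, against 165 and 131 CPM in vehicle males and 208, 268 and 234 CPM in vehicle females. The PFOA and vehicle values did not overlap in either genotype, and each KO PFOA value lay below each hPPARa PFOA value. The share of all genes whose values separate in this way was not counted, here or for the members below. The gene rose 2.88-fold in KO (log2 difference 1.53 ± 0.25 SE, adjusted p = 0.00319) and 6.33-fold in hPPARa (2.66 ± 0.21, adjusted p = 3.61e-06). With those 3 KO libraries left out the KO difference, which then comes from males alone, was 2.04 ± 0.20 (adjusted p = 0.000539).

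Aldh1a1, the retinaldehyde dehydrogenase, rose in both genotypes, to PFOA levels whose ranges overlapped. In KO livers it had 2427, 2658 and 1871 CPM in PFOA males and 2351, 2495 and 2442 CPM in PFOA females, against 993, 725 and 1056 CPM in vehicle males and 424 CPM in the vehicle female. In hPPARa livers it had 1981, 2725 and 2507 CPM in PFOA males and 1750 and 1714 CPM in PFOA females, against 1333 and 1362 CPM in vehicle males and 389, 592 and 551 CPM in vehicle females. Every PFOA value lay above every vehicle value of its genotype. The gene rose 3.22-fold in KO (log2 difference 1.69 ± 0.22, edgeR adjusted p = 0.000685) and 2.45-fold in hPPARa (1.30 ± 0.18, adjusted p = 0.000313). Without the 3 KO libraries the KO difference, from males alone, was 1.22 ± 0.19 (adjusted p = 0.00505).

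Aldh1a7, the paralogue, had 403, 352 and 258 CPM in KO PFOA males and 472, 495 and 386 CPM in KO PFOA females. These stood against 173, 113 and 169 CPM in KO vehicle males and 49.9 CPM in the KO vehicle female. In hPPARa livers it had 331, 321 and 319 CPM in PFOA males and 375 and 322 CPM in PFOA females, against 160 and 167 CPM in vehicle males and 77.7, 73.2 and 114 CPM in vehicle females. PFOA and vehicle values again did not overlap, and the vehicle female of KO was the lowest of the 20 libraries. The gene rose 3.27-fold in KO (log2 difference 1.71 ± 0.39, edgeR adjusted p = 0.0228) and 2.79-fold in hPPARa (1.48 ± 0.19, adjusted p = 0.000203). The KO call was the least firm of the 8: adjusted p was 0.0585 without KO male vehicle replicate 2, 0.0538 without KO male PFOA replicate 1, 0.0681 with a replicate block and 0.0604 with no filter for low counts. Without the 3 KO libraries the KO difference, from males alone, was 1.13 ± 0.23 (adjusted p = 0.027).

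Aldh9a1, of carnitine synthesis, changed less, with little spread between libraries. In KO livers it had 301, 268 and 251 CPM in PFOA males and 264, 286 and 284 CPM in PFOA females, against 190, 174 and 175 CPM in vehicle males and 158 CPM in the vehicle female. In hPPARa livers it had 376, 448 and 465 CPM in PFOA males and 402 and 372 CPM in PFOA females, against 251 and 217 CPM in vehicle males and 177, 178 and 240 CPM in vehicle females. The PFOA libraries stood above the vehicle libraries in both genotypes, in hPPARa by a wider margin. The gene rose 1.60-fold in KO (log2 difference 0.67 ± 0.09, edgeR adjusted p = 0.000565) and 1.89-fold in hPPARa (0.92 ± 0.11, adjusted p = 8.3e-05). Without the 3 KO libraries the KO difference, from males alone, was 0.62 ± 0.14 (adjusted p = 0.0295).

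**Figure D1:**
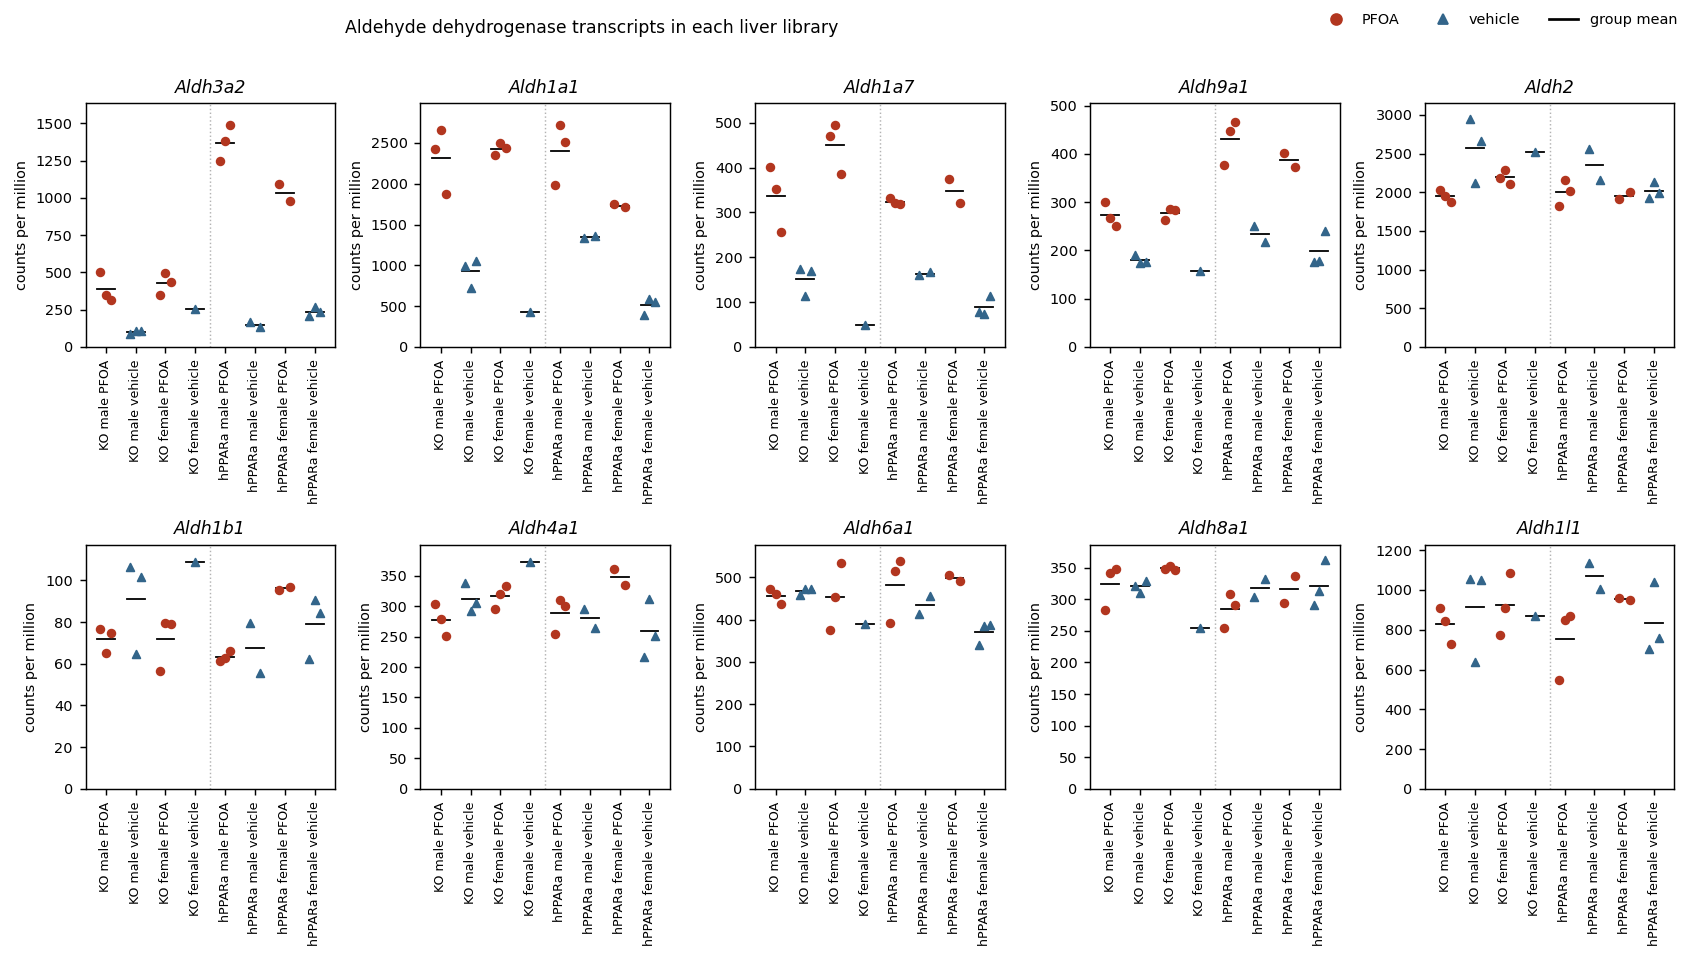
CPM of the 10 members in each of the 20 libraries, on linear axes that start at 0. Circles are PFOA libraries, triangles vehicle libraries and lines group means. In the panels of Aldh3a2, Aldh1a1, Aldh1a7 and Aldh9a1 all PFOA points of a genotype lie above its vehicle points. In the other 6 panels they overlap. How many of all genes separate in this way was not counted.

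The other 6 members did not pass in either genotype, and their PFOA and vehicle values overlapped in both. Aldh2, the main mitochondrial acetaldehyde enzyme, had 1872 to 2293 CPM (median 2066) in 6 KO PFOA libraries and 2118 to 2944 CPM (median 2593) in 4 KO vehicle libraries. In hPPARa it had 1829 to 2158 CPM on PFOA and 1932 to 2557 CPM on vehicle, 5 libraries each. Its log2 difference in KO was −0.33 ± 0.11 (edgeR adjusted p = 0.0596), and in hPPARa −0.15 ± 0.10 (adjusted p = 0.33). The KO value passed with DESeq2 (adjusted p = 0.0149), without the filter (0.0415), in a joint fit of all libraries (0.0318) and without KO male vehicle replicate 2 (0.0298). Aldh1b1, its mitochondrial relative, had 56.7 to 79.4 CPM (median 75.6) on PFOA and 64.5 to 109 CPM (median 104) on vehicle in KO, and 61.4 to 96.9 CPM on PFOA and 55.3 to 90.6 CPM on vehicle in hPPARa. The log2 difference was −0.43 ± 0.15 in KO (adjusted p = 0.0758) and 0.09 ± 0.13 in hPPARa (adjusted p = 0.632). The KO value passed without the filter (adjusted p = 0.00152) and without KO male vehicle replicate 2 (−0.56, adjusted p = 0.00897).

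Aldh6a1, the methylmalonate semialdehyde dehydrogenase of valine breakdown, had 375 to 533 CPM on PFOA and 389 to 473 CPM on vehicle in KO. In hPPARa it had 392 to 538 CPM on PFOA and 339 to 456 CPM on vehicle. Its log2 differences were 0.05 ± 0.11 in KO (edgeR adjusted p = 0.816) and 0.29 ± 0.11 in hPPARa (adjusted p = 0.0813). The hPPARa value passed without hPPARa male PFOA replicate 1 (0.36, adjusted p = 0.0109). Aldh4a1, the proline route enzyme, had 251 to 332 CPM on PFOA and 293 to 373 CPM on vehicle in KO, and 254 to 361 CPM on PFOA and 216 to 313 CPM on vehicle in hPPARa. It differed by −0.19 ± 0.09 in KO and 0.23 ± 0.12 in hPPARa (adjusted p = 0.192 and 0.199). Aldh8a1, of the kynurenine route, had 282 to 353 CPM on PFOA and 255 to 329 CPM on vehicle in KO, and 254 to 337 CPM on PFOA and 290 to 362 CPM on vehicle in hPPARa. It differed by 0.15 ± 0.11 in KO and −0.10 ± 0.10 in hPPARa (adjusted p = 0.365 and 0.525). Aldh1l1, the folate enzyme, had 727 to 1085 CPM on PFOA and 637 to 1057 CPM on vehicle in KO, and 548 to 961 CPM on PFOA and 701 to 1137 CPM on vehicle in hPPARa. It differed by −0.07 ± 0.16 in KO and −0.16 ± 0.17 in hPPARa (adjusted p = 0.809 and 0.545). In the GENCODE M21 annotation 1595 exon bases of Aldh4a1 overlap Gm21969 on the same strand and 1078 of Aldh6a1 overlap Bbof1 on the other strand, so the counts of both are uncertain. None of these 6 members passed in KO without the 3 KO libraries, with log2 differences of −0.40 for Aldh2, −0.26 for Aldh1b1, −0.17 for Aldh4a1 and −0.16 for Aldh1l1. These differences come from males alone, and those of Aldh6a1 and Aldh8a1 changed sign, to −0.04 and −0.02.

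**Figure D2:**
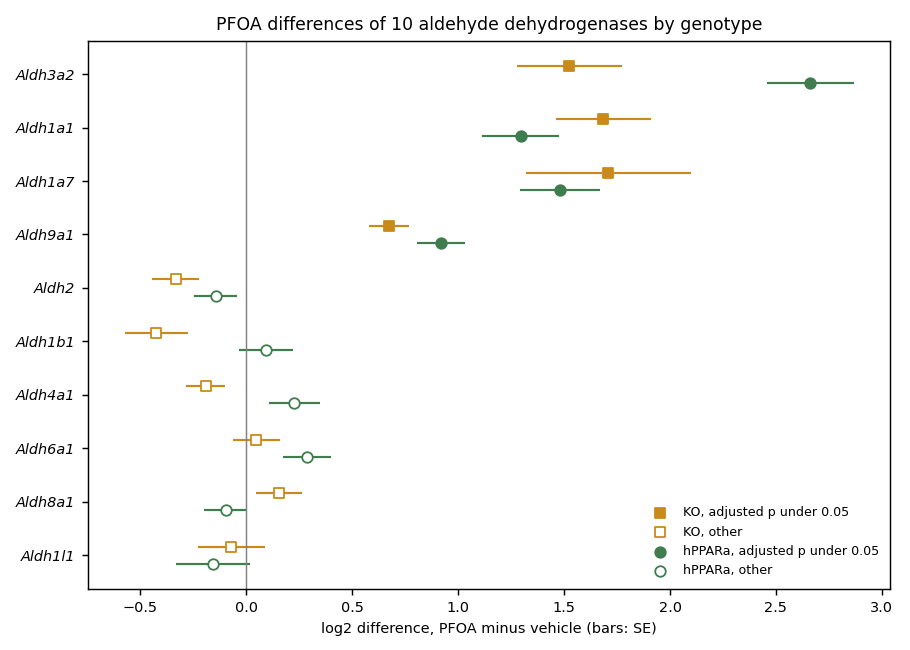
Log2 difference between PFOA and vehicle for each member in KO (squares) and hPPARa (circles), with bars for the SE; filled symbols passed an adjusted p of 0.05. The 4 upper genes lie between 0.67 and 2.66 with filled symbols in both genotypes, and the 6 lower genes lie between −0.43 and 0.29 with open symbols.

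Whether the response to PFOA differed with the receptor was tested as the KO difference minus the hPPARa difference. By edgeR 0 of the 10 members passed, where 1.17% of all genes tested did, and 3 members had an unadjusted p under 0.05, where 14% of all genes tested did. Aldh3a2 differed by −1.14 ± 0.33 (unadjusted p = 0.00292, adjusted p = 0.109). It passed with DESeq2 (−1.14, adjusted p = 0.0179), with an equal weight for the sexes (−1.31, adjusted p = 0.00154) and without KO male PFOA replicate 1 (−1.32, adjusted p = 0.0331). Without the 3 KO libraries it was −0.62 ± 0.33 (adjusted p = 0.576), but there KO males are set against both sexes of hPPARa. That value therefore does not recheck the term. In males alone the PFOA difference of Aldh3a2 was 1.97 ± 0.19 in KO and 3.21 ± 0.18 in hPPARa. Aldh1b1 differed by −0.52 ± 0.21 (unadjusted p = 0.0212) and Aldh4a1 by −0.42 ± 0.15 (unadjusted p = 0.0125). For Aldh1a1 and Aldh1a7 the values were 0.39 ± 0.31 and 0.22 ± 0.44, which do not show that the genotypes responded alike. Both changed sign without the 3 KO libraries (−0.08 ± 0.30 and −0.36 ± 0.34), where again KO males are set against both sexes of hPPARa. In males alone Aldh1a1 differed by 1.33 ± 0.16 in KO and 0.84 ± 0.19 in hPPARa. Aldh1a7 differed there by 1.16 ± 0.20 in KO and 0.99 ± 0.18 in hPPARa.

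The levels themselves were compared between genotypes on the same water. On PFOA 2 of 10 members passed by edgeR, both lower in KO, where 16.4% of all genes tested passed in either direction. Aldh3a2 averaged 408 ± 80.1 CPM in KO PFOA livers (SD, n = 6) and 1236 ± 207 CPM in hPPARa PFOA livers (SD, n = 5), 2.92-fold lower in KO (log2 difference −1.55 ± 0.13, adjusted p = 6.52e-08). Aldh9a1 averaged 275 ± 18 CPM in KO PFOA livers and 413 ± 42.1 CPM in hPPARa PFOA livers, 1.48-fold lower in KO (−0.57 ± 0.09, adjusted p = 0.000316). Both passed in each of the 25 alternatives run, and without the 3 KO libraries the values were −1.57 and −0.57. On vehicle 0 of 10 members passed by edgeR, where 4.52% of all genes tested did, and 5 members had an unadjusted p under 0.05, where 20.2% of all genes tested did, among them Aldh9a1 (−0.36 ± 0.11, adjusted p = 0.0818). Without the filter 3 passed and with DESeq2 2 did. Aldh3a2 on vehicle averaged 138 ± 77.8 CPM in KO (SD, n = 4) and 201 ± 54.4 CPM in hPPARa (SD, n = 5), a log2 difference of −0.24 ± 0.15 (adjusted p = 0.408).

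Levels of different genes were set side by side per kilobase of the longest protein-coding transcript of GENCODE M21. On vehicle Aldh2 stood first in both genotypes, with 663 ± 88.8 CPM per kilobase in KO and 557 ± 63.2 in hPPARa, followed by Aldh1a1 with 339 ± 122 in KO and 359 ± 197 in hPPARa. The spread of Aldh1a1 on vehicle was wide, with each male above each female of its genotype. On PFOA Aldh1a1 stood first, with 1007 ± 113 CPM per kilobase in KO and 906 ± 194 in hPPARa, above Aldh2 with 536 ± 39.5 in KO and 512 ± 31.9 in hPPARa. Aldh3a2 was 7th on PFOA and 9th on vehicle in KO, with 132 ± 25.9 CPM per kilobase on PFOA and 44.7 ± 25.2 on vehicle. In hPPARa it was 3rd on PFOA and 8th on vehicle, with 400 ± 67.0 on PFOA and 65.1 ± 17.6 on vehicle. Aldh1b1 was last of the 10 in all 4 sets, at 31.3 to 41.5 CPM per kilobase. The middle ranks lay close together: in hPPARa on PFOA Aldh1a7, Aldh9a1, Aldh6a1 and Aldh8a1 averaged 161, 146, 144 and 132 CPM per kilobase, and the SDs of the last 3 of these were 14.9, 16.6 and 13.4. With all annotated exons as the length, Aldh1a1 still stood first on PFOA, Aldh1l1 was second on vehicle and Aldh3a2 was last on vehicle in KO.

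**Figure D3:**
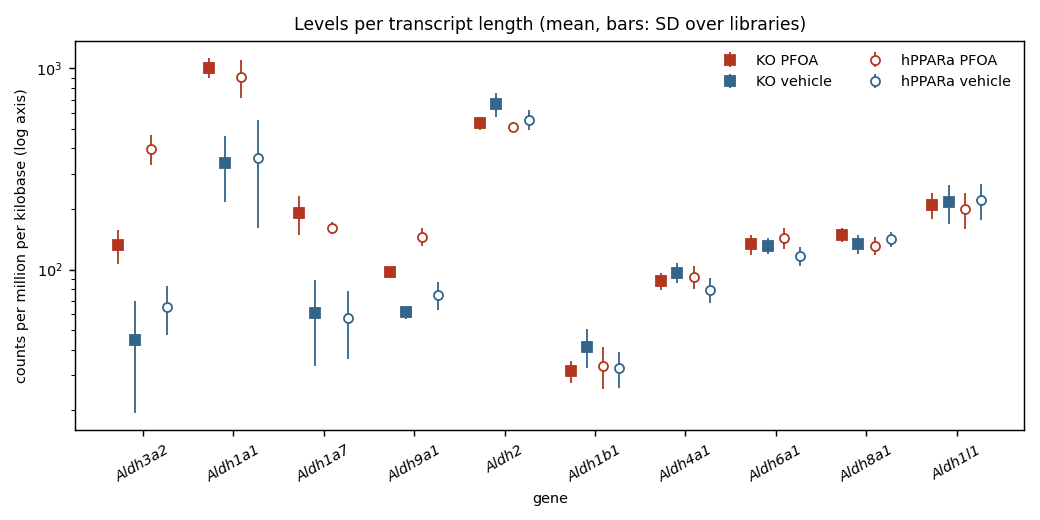
Mean level of each member in CPM per kilobase of transcript, on a log axis, with bars for the SD over libraries. Filled squares are KO and open circles hPPARa, red for PFOA and blue for vehicle; Aldh1a1 and Aldh2 lie highest, and Aldh3a2 on PFOA lies at 132 in KO and at 400 in hPPARa.

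Aldh1a1 was higher in males than in females in hPPARa, and did not pass in KO. In hPPARa 1 of 10 members passed, where 3.48% of all genes tested did: Aldh1a1 was 1.92-fold higher in males (log2 difference 0.94 ± 0.18 over both waters, edgeR adjusted p = 0.0128), and passed in all 14 alternatives. On vehicle it averaged 1347 ± 20.5 CPM in hPPARa males (n = 2) and 511 ± 107 CPM in hPPARa females (n = 3), and on PFOA 2404 ± 383 CPM in hPPARa males (n = 3) and 1732 ± 25.9 CPM in hPPARa females (n = 2). In KO 0 of 10 members passed by edgeR, where 3.41% of all genes tested did, and 2, Aldh3a2 and Aldh4a1, had an unadjusted p under 0.05, where 19.5% of all genes tested did. The KO value of Aldh1a1 was 0.29 ± 0.22 (adjusted p = 0.50) with all libraries. Without the 3 KO libraries it was −0.15 ± 0.21 (adjusted p = 0.873), a sex difference that comes from PFOA libraries alone. On vehicle it had 725 to 1056 CPM in KO males and 424 CPM in the KO female, and on PFOA 1871 to 2658 CPM in KO males and 2351 to 2495 CPM in KO females.

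The PFOA differences were also taken within each sex. Aldh3a2 differed more in males: by 1.97 ± 0.19 in KO males and 0.74 ± 0.27 in KO females, and by 3.21 ± 0.18 in hPPARa males and 2.12 ± 0.15 in hPPARa females. Aldh1a1 and Aldh1a7 showed the reverse order. Aldh1a1 differed by 1.33 ± 0.16 in KO males and 2.50 ± 0.27 in KO females, and by 0.84 ± 0.19 in hPPARa males and 1.75 ± 0.18 in hPPARa females. Aldh1a7 differed by 1.16 ± 0.20 in KO males and 3.16 ± 0.34 in KO females, and by 0.99 ± 0.18 in hPPARa males and 1.97 ± 0.17 in hPPARa females. Aldh9a1 lay between 0.61 and 0.96 in the 4 sets of each sex and genotype. All values in KO males and in both sexes of hPPARa passed by edgeR. In KO females that of Aldh3a2 did not, and each KO female value rests on 1 vehicle library. The 4 genes were taken because they passed in these same libraries with both sexes together, so these calls give no independent support. The share of all genes tested that passed within a sex was not counted.

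The difference between the sexes itself was tested as the male minus the female PFOA difference. By edgeR 0 of 10 members passed in KO, where 0.241% of all genes tested did. In hPPARa it was 0 of 10, where 0.104% of all genes tested did. At an unadjusted p under 0.05 there were 4 members in KO (Aldh1a1, Aldh1a7, Aldh3a2 and Aldh8a1), against 10.7% of all genes tested, and 4 in hPPARa (Aldh1a1, Aldh1a7, Aldh3a2 and Aldh1l1), against 10.3%. With DESeq2 Aldh1a1, Aldh1a7 and Aldh3a2 passed in both genotypes. Because the values went the same way in both, the mean of the 2 terms was tested over all 20 libraries, a test chosen after these values were seen, which restates them and gives no independent support. There 3 of 10 members passed, where 0.848% of all genes tested did. Aldh1a7 differed by −1.51 ± 0.22 (adjusted p = 0.00283) and Aldh1a1 by −1.06 ± 0.20 (adjusted p = 0.0165), a smaller difference in males, and Aldh3a2 by 1.15 ± 0.19 (adjusted p = 0.00699), a larger one in males. Each of the 3 passed in all 19 fits that left out 1 library. The term could not be fitted without KO female vehicle replicate 1, 1 of the libraries with transcripts of the other sex.

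**Figure D4:**
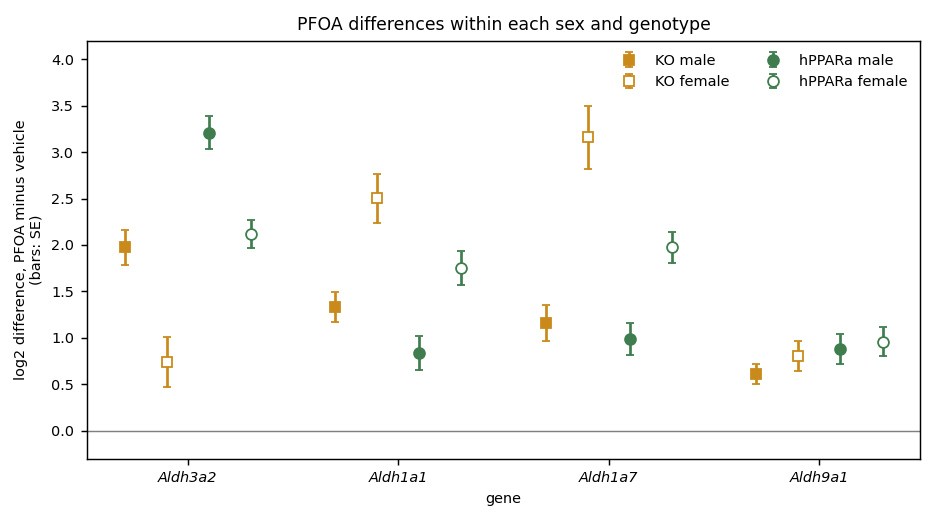
Log2 difference between PFOA and vehicle of the 4 members that passed, in KO males, KO females, hPPARa males and hPPARa females, with bars for the SE. Filled symbols are males and open ones females; for Aldh3a2 the male values (1.97 and 3.21) lie above the female values (0.74 and 2.12), and for Aldh1a1 and Aldh1a7 they lie below.

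The 3 members that changed at least 2-fold were each compared with the other genes among 7455 with a mean of at least 10 CPM. Predicted-gene symbols (Gm, Rik) were left out. The measure was the root mean square difference of centred log2 CPM over the 20 libraries. Aldh1a7 was the gene most like Aldh1a1, at 0.30, and Aldh1a1 the gene most like Aldh1a7, where their own SDs were 0.94 and 0.98. Next for Aldh1a1 were Ces1e and Aox1, a carboxylesterase and an aldehyde oxidase (0.30 and 0.34). Next for Aldh1a7 were Ces1e and Ephx1, the microsomal epoxide hydrolase (0.34 and 0.35). For Aldh3a2, with an SD of 1.29, they were Cd36, Crat and Slc22a5, of fatty acid uptake, acetylcarnitine formation and carnitine uptake (0.47, 0.48 and 0.49). These are descriptions over libraries that share exposure, sex and genotype.

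Of the 11 other Aldh genes, 9 were tested in KO and 7 in hPPARa, and the 2 that rose did so by less than any of the 4 members above. In KO 0 were higher and 2 lower on PFOA, and in hPPARa 2 were higher and 3 lower. Of all genes tested 13.8% passed in either direction in KO and 22.6% in hPPARa. Aldh3b3, of family 3 like Aldh3a2 but of another subfamily, had 0.373 to 1.18 CPM in KO PFOA females. It had 6.77 CPM in the KO vehicle female. In hPPARa females it had 0.90 and 1.02 CPM on PFOA and 8.64 to 13.3 CPM on vehicle. In males it stayed at or under 0.201 CPM in all groups, so its PFOA difference (−2.25 ± 0.63 in KO, adjusted p = 0.0343, and −3.36 ± 0.44 in hPPARa, adjusted p = 0.000158) rests on females. Its KO call held in 8 of 15 alternatives. The male minus female log2 difference was −4.41 in KO and −5.82 in hPPARa (adjusted p = 0.00471 and 6.2e-05). Aldh1a2, another retinaldehyde dehydrogenase, differed by −2.29 ± 0.59 in KO and −2.11 ± 0.36 in hPPARa (adjusted p = 0.0231 and 0.000993), with at most 3.10 CPM in any library. It was named after its values were seen. Aldh16a1 fell in hPPARa (−0.69 ± 0.10, adjusted p = 0.000301), and Aldh5a1 and Aldh7a1, of GABA and lysine breakdown, rose there (0.42 ± 0.08 and 0.42 ± 0.12, adjusted p = 0.0032 and 0.0195). None of those tested passed in KO without the 3 KO libraries, where Aldh3b3 was not tested. Aldh1a2 lost its KO call there and without the KO vehicle female, and over 17 alternatives its KO difference lay between −2.72 and −1.64.

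The enzymes around each member were then counted, in lists chosen with earlier results of these data known. Of all genes tested 7.41% were higher and 6.36% lower on PFOA in KO, and 12.8% were higher and 9.76% lower in hPPARa. In the list of fatty aldehyde sources, next to Aldh3a2, 3 of 12 were higher and 3 lower in KO, and 4 of 11 higher and 1 lower in hPPARa, with list medians of −0.09 in KO and 0.02 in hPPARa. The KO count was 3 higher and 0 lower without the 3 KO libraries. Sgpl1, the sphingosine phosphate lyase whose product Aldh3a2 oxidises, rose by 1.59 ± 0.17 in KO and 1.16 ± 0.11 in hPPARa (log2, edgeR adjusted p = 0.000151 and 1.0e-05). Agmo, which cleaves ether lipids to fatty aldehydes, rose by 0.67 ± 0.10 in KO and 0.69 ± 0.12 in hPPARa (adjusted p = 0.000759 and 0.0011). Cyp4f15, a fatty acid hydroxylase, rose by 0.95 ± 0.12 in KO and 0.79 ± 0.13 in hPPARa. These 3 passed in all alternatives of both genotypes. Cyp4f14, of the same list, went the other way, by −0.97 ± 0.23 in KO and −0.88 ± 0.27 in hPPARa (edgeR adjusted p = 0.019 and 0.047). Its calls held in 14 of 17 alternatives in KO and in 7 of 16 in hPPARa.

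Around Aldh9a1 in the carnitine and amine list, 2 of 12 were higher and 1 lower in KO, and 2 of 10 higher and 3 lower in hPPARa. Slc22a5, the carnitine importer, rose by 1.25 ± 0.19 in KO and 1.52 ± 0.12 in hPPARa (edgeR adjusted p = 0.00172 and 1.97e-06), in all alternatives. Chdh, the choline dehydrogenase, rose by 0.45 ± 0.11 in KO and 1.07 ± 0.11 in hPPARa (adjusted p = 0.0168 and 2.6e-05). Shmt1, a serine and glycine enzyme also in the folate list, fell by 0.77 in KO and by 0.63 in hPPARa. Bhmt, of betaine use, fell by 0.84 in hPPARa (adjusted p = 0.0168). The KO calls of Chdh and Shmt1 were lost without the 3 KO libraries at differences of 0.50 and −0.89 (adjusted p = 0.12 and 0.052), and the hPPARa call of Bhmt without hPPARa male vehicle replicate 1 or hPPARa female PFOA replicate 1 (at most 0.0593).

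Around Aldh1a1, 2 of 15 alcohol and retinol dehydrogenases were higher and 0 lower in KO, and 3 of 14 were higher and 2 lower in hPPARa. Rdh16, a retinol dehydrogenase, rose by 0.74 ± 0.16 in KO and 1.13 ± 0.10 in hPPARa (edgeR adjusted p = 0.00873 and 4.83e-06), and Dhrs4, a peroxisomal retinaldehyde reductase, by 0.82 ± 0.09 in KO and 1.16 ± 0.09 in hPPARa. Adh7 and Rdh5 fell in hPPARa, by 1.12 and 0.66. Among 8 genes of retinoid storage and clearance 3 were higher and 1 lower in KO, and 1 higher and 2 lower in hPPARa. Cyp26a1, which clears retinoic acid, had 13.6 to 18.6 CPM in KO PFOA males and 14.0 to 32.2 CPM in KO PFOA females, against 0.334 to 1.35 CPM in KO vehicle males and 0.362 CPM in the KO vehicle female. In hPPARa the ranges overlapped, with 3.21 to 10.7 CPM on PFOA and 1.23 to 9.73 CPM on vehicle. Its log2 difference was 4.85 ± 0.44 in KO (adjusted p = 0.000169) and 0.86 ± 0.52 in hPPARa (adjusted p = 0.272), and the KO minus hPPARa term was 3.99 ± 0.79 (adjusted p = 0.0234). That term passed in 19 of 26 alternatives, with an adjusted p of up to 0.217. Rarb, a retinoic acid receptor gene, rose by 2.13 ± 0.40 in KO and 1.41 ± 0.32 in hPPARa (adjusted p = 0.00397 and 0.0072). Rbp4, the plasma retinol carrier, fell by 0.34 in KO and by 0.49 in hPPARa, a KO call that held in only 5 of 17 alternatives.

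Among aldehyde oxidases and reductases, which share substrates with the family, 5 of 18 were higher and 0 lower in KO, and 3 of 17 higher and 2 lower in hPPARa. Aox1, an aldehyde oxidase, rose by 1.45 ± 0.23 in KO and 1.12 ± 0.14 in hPPARa (edgeR adjusted p = 0.00264 and 0.000137). The KO call of Aox1 was lost without the 3 KO libraries, at a difference of 1.11 (adjusted p = 0.0626), and the list then had 2 higher and 1 lower. Akr1b7, an aldo-keto reductase, rose by 3.67 ± 0.41 in KO and 2.62 ± 0.48 in hPPARa (adjusted p = 0.000302 and 0.00224), and had at most 2.12 CPM on vehicle in any library. Akr1c20, another of them, was lower in hPPARa (−0.88 ± 0.21, adjusted p = 0.0125), in all 16 alternatives. In KO it differed by −0.28 ± 0.16 (adjusted p = 0.277). Cbr1, a carbonyl reductase, rose by 0.70 ± 0.12 in KO (adjusted p = 0.00184) and had −0.31 ± 0.14 in hPPARa (adjusted p = 0.124). The KO minus hPPARa term of Cbr1 was 1.01 ± 0.19 (adjusted p = 0.0119) and passed in all 26 alternatives.

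Around the members that did not pass, the routes were mixed. In valine and branched-chain breakdown, the route of Aldh6a1, 1 of 21 was higher and 1 lower in KO, and 5 were higher and 1 lower in hPPARa, with list medians of −0.04 in KO and 0.22 in hPPARa. In proline breakdown, the route of Aldh4a1, 0 of 9 were higher and 3 lower in KO, and 1 higher and 2 lower in hPPARa. Prodh, the first enzyme of that route, fell by 0.72 in KO and by 0.89 in hPPARa (edgeR adjusted p = 0.00858 and 0.0054). In the folate list of Aldh1l1, 1 of 19 was higher and 1 lower in KO, and 2 higher and 1 lower in hPPARa. Amt, of the glycine cleavage system, rose by 0.66 ± 0.17 in KO and 0.73 ± 0.10 in hPPARa (adjusted p = 0.0265 and 0.00014). In the tryptophan route of Aldh8a1, 1 of 12 was higher and 0 lower in KO, and 3 higher and 2 lower in hPPARa, among them Ido2, which opens the indole ring, lower by 0.79 (adjusted p = 0.000245). Over all 10 lists 29 genes passed in KO, of which 10 passed in all 17 alternatives and 17 were lost without the 3 KO libraries. Aldh3b3 and Sphk1 were not tested without those libraries. In hPPARa 44 passed, of which 33 passed in all 16 alternatives. The numbers tested are given list by list above, and of all genes tested 13.8% passed in KO and 22.6% in hPPARa. The KO calls of Prodh and Amt were among those lost, at differences of −0.67 and 0.41 (adjusted p = 0.19 and 0.182). Without these libraries the KO count was 0 in the valine, proline, folate and tryptophan lists, 1 higher in the carnitine list, and 2 higher in each of the retinol dehydrogenase and retinoid lists.

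**Figure D5:**
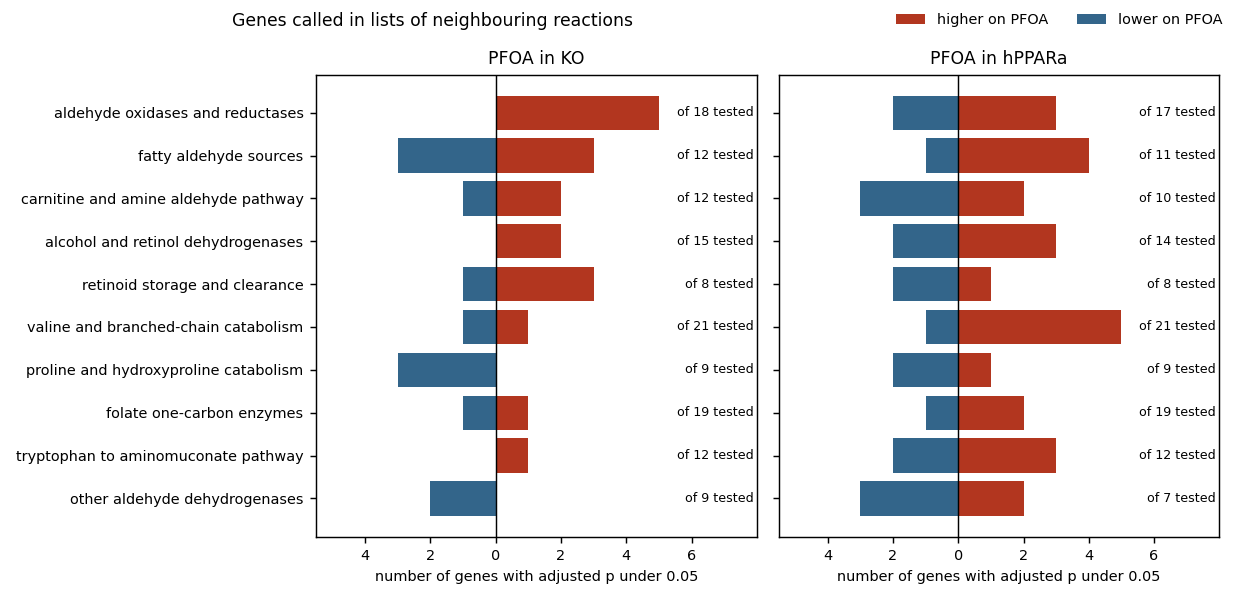
Number of genes that passed an adjusted p of 0.05 in each list of neighbouring reactions, for PFOA in KO (left) and in hPPARa (right). Bars to the right count genes higher on PFOA and bars to the left genes lower on PFOA, with the number tested at the edge; the largest bar to the right is 5 in both panels.

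Markers of liver cell types were read in the same libraries, and their part in the differences of the members was not tested. The summed level of 10 hepatocyte markers was 71100 to 94500 CPM in KO PFOA libraries and 93400 to 117000 CPM in KO vehicle libraries. In hPPARa it was 87500 to 128000 CPM on PFOA and 116000 to 213000 CPM on vehicle. Of these 10 markers, 1 fell and 0 rose with PFOA in KO, and 5 fell and 0 rose in hPPARa. For this and the marker counts below, 7.41% of all genes tested were higher and 6.36% lower in KO. In hPPARa 12.8% were higher and 9.76% lower. Among 10 periportal markers 2 fell in KO, and 5 fell and 1 rose in hPPARa. Among 10 pericentral markers 3 fell and 1 rose in each genotype. Cholangiocyte markers summed to 15.9 to 46.6 CPM on PFOA and 50.5 to 188 CPM on vehicle in KO, where 5 of 6 tested fell, and to 16.1 to 45.7 CPM on PFOA and 30.6 to 38.4 CPM on vehicle in hPPARa, where 0 of 5 passed. Of 12 Kupffer cell and macrophage markers, 3 rose in KO and 5 fell in hPPARa. Of 10 endothelial markers 2 rose in KO and 5 rose in hPPARa, with none lower, among them Lyve1 (3.58-fold in KO and 4.30-fold in hPPARa, a gene named after its values were seen). Of 11 stellate and fibroblast markers 3 fell in KO and 2 fell in hPPARa, and of 5 erythroid markers tested 0 passed in either. Neutrophil and lymphocyte markers summed to 92.9 to 332 CPM in KO PFOA libraries and 4.48 to 11.1 CPM in KO vehicle libraries. S100a8, a calcium-binding protein gene of neutrophils, alone had 87.9 to 325 CPM in KO PFOA libraries and at most 0.54 CPM in KO vehicle libraries. Of the 10 tested S100a8 alone passed, Ly6g was at 0 in all KO PFOA libraries and S100a9 stayed at or under 2.02 CPM there. In hPPARa the list summed to 7.89 to 18.1 CPM on PFOA and 5.70 to 7.48 CPM on vehicle, and S100a8 again passed, 24.2-fold higher on PFOA (edgeR adjusted p = 8.35e-06). No hepatocyte marker was at 0 in all libraries of any group.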

How the data were processed

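Bulk liver RNA of 20 mouse samples was analysed in the 8 groups that the sample titles give. The submitters' processing notes name build GRCm39 and list, without roles, edgeR 3.36.0, R 4.1.0, featureCounts 1.6.1, STAR 2.5.3, cutadapt 1.15 and FastQC 0.11.5. The annotation and strand settings are unknown here, so overlapping genes may share reads. The authors deposited whole-number counts per gene without normalization, 1 table for each genotype. The design text writes the dose as 8 µm, read here as micromolar.

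The test throughout was that of edgeR 4.0.16, run in R 4.3.3 (TMM factors, its default filter by group, robust quasi-likelihood test, Benjamini-Hochberg adjustment over all genes tested, threshold 0.05). Effects within a genotype came from an additive model of exposure and sex, the KO minus hPPARa term from 1 model of all libraries, and genotype contrasts and PFOA by sex terms from group means. An SE is the log2 difference divided by the square root of the F value. Alternatives were DESeq2 1.42.0, its size factors, no filter, a replicate block, each library left out, the 3 KO libraries left out, a joint fit and equal weights for the sexes. Every pair of libraries within a group differed by more than counting noise. Levels per length and overlaps used GENCODE M21, and windows are from RefSeq, both of GRCm38 and not the authors' build; 1 member had no window.

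The members and lists were chosen with earlier results of these data known. Named are all members; of each list up to 4 genes per comparison with the smallest adjusted p among those past 0.05 and at a mean of at least 1 CPM, from which the text takes a part; and for likeness the 3 nearest genes (prior count 2). Replicate numbers do not pair the samples. A result on 1 listed gene is not reported here.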

Additional observations from a re-analysis of the deposited data

Results flagged for a closer look

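For 3 members the PFOA difference was read as unequal in males and females, from a term averaged over both genotypes after its 2 parts were seen to go the same way, so the test restates what prompted it. The averaged male minus female term was −1.06 for Aldh1a1, −1.51 for Aldh1a7 and 1.15 for Aldh3a2. In KO alone the terms were −1.17, −2.0 and 1.23, and in hPPARa alone −0.92, −0.99 and 1.09, none of which passed by edgeR. The KO part rests on 1 vehicle female, whose library holds Y-linked transcripts. On vehicle Aldh1a7 averaged 152 CPM in KO males and had 49.9 CPM in the KO female, and it averaged 163 CPM in hPPARa males and 88.3 CPM in hPPARa females. On PFOA it averaged 337 CPM in KO males and 451 CPM in KO females, and 324 CPM in hPPARa males and 348 CPM in hPPARa females.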

How the results depend on the processing

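The counts of members that passed with PFOA (4 in KO and 4 in hPPARa) were 3 to 5 in KO and 4 to 5 in hPPARa when each library was left out. With a replicate block they were 3 and 4, Aldh1a7 in KO being lost, and the numbers do not pair the samples (correlations of same-numbered libraries −0.191 to 0.0943 in KO and −0.119 to 0.174 in hPPARa). For the KO minus hPPARa term the count was 0, but 1 without the filter, with DESeq2 and with equal weights, and 0 to 1 with a library left out. For KO against hPPARa on vehicle it was 0, but 3 without the filter and 2 with DESeq2, and 0 to 1 with a library left out. For male against female in hPPARa it was 1, but 3 without the filter, and 1 to 2 with a library left out. For PFOA by sex it was 0 in both genotypes, but 3 in KO and 4 in hPPARa without the filter, 3 in both with DESeq2, and 0 to 1 in both with a library left out. The cause was not tested. KO against hPPARa on PFOA kept a count of 2 throughout. The vehicle contrast of the genotypes and the PFOA by sex term in KO could not be fitted without KO female vehicle replicate 1.

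Over all genes, 2113 passed with PFOA in KO, against 630 without the 3 KO libraries and 1401 to 2129 with 1 left out. In hPPARa 3253 passed, and 1905 to 3889 with 1 left out. For the KO minus hPPARa term 185 passed, 545 without the filter, 431 with DESeq2, 310 with equal weights, 39 without the 3 KO libraries and 67 to 239 with 1 left out. Without the 3 KO libraries the KO differences come from males alone, so those counts do not recheck the values of both sexes. Groups of 1 to 3 libraries limit what could be detected.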
